A study of Mus musculus with 6 samples.

Results

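Disallowed genes are genes that most tissues express and that beta cells, the insulin-producing cells of the pancreatic islet, keep at a very low level. The 10 genes described here (Ldha, Slc16a1, Rest, Mgst1, Oat, Igfbp4, Smad3, Zfp36l1, Lmo4 and Ndrg2) were taken by symbol from a table of 54532 genes, in which each occurs once. RNA was measured by poly(A)-selected sequencing of whole islets from mice aged 7 weeks. The control group (3 libraries) had the genotype Ythdc1flox/flox, in which the gene carries sites for recombination but is not described as deleted. The knockout group (3 libraries, here bKO) had the genotype Ythdc1-betaKO, a deletion of Ythdc1 in beta cells. YTHDC1 is a nuclear protein that binds N6-methyladenosine in RNA. The driver of the deletion in beta cells, the sex of the animals and whether any were pooled are not given in the sources used here, but the libraries of a group are said to be biologically independent. For bKO replicates 2 and 3 the short description carries the name of a different Ythdc gene, whereas genotype and title give the Ythdc1 knockout, which was followed here.

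Beta cells couple glucose to insulin release by sending nearly all pyruvate into mitochondria. Lactate dehydrogenase A (Ldha) and the lactate and pyruvate carrier MCT1 (Slc16a1) would divert pyruvate or admit it from blood, and MCT1 in beta cells is known to cause insulin release during exercise. The other members include REST, the repressor that silences neuronal genes in most tissues, enzymes (Oat, Mgst1), regulators of transcription and signalling (Smad3, Lmo4, Ndrg2), an RNA-binding protein (Zfp36l1) and a secreted protein (Igfbp4). DNA methylation by DNMT3A and the miR-29 family are known to take part in keeping some of these genes low. Whole islets also hold alpha, delta and PP cells, endothelium, stroma, nerve sheath and immune cells, many of which express these genes. In such samples a smaller number of cells of a type and less RNA per cell cannot be told apart.

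The deposited unit was FPKM, a fragment count divided by gene length in kilobases and divided by a factor for each library, which here was a median-of-ratios size factor and not the library total. Each FPKM came out as a whole number of reads, so the depth behind each value is known: the libraries held 16863329 to 18240339 reads, and the 10 disallowed genes together 942 to 1042 reads in control and 1280 to 1393 in bKO. The relative size factors were 0.923 to 0.988 in control and 1.04 to 1.10 in bKO. Part of the gap in reads between the groups therefore lies in these factors, which FPKM divides out. Ythdc1 was at 5.76, 6.46 and 6.18 FPKM in control and at 3.81, 3.79 and 3.87 FPKM in bKO. It fell by 0.56 on the log2(FPKM + 1) scale (SE 0.058, limma adjusted p = 0.00139), in a value that covers all islet cells and all exons, some of which overlap those of the lincRNA gene Gm43055 on the same strand. Of 10 beta-cell markers all were tested, 7 fell (Slc2a2, Mafa, Slc30a8, Nkx6-1, G6pc2, Ins1 and Ins2) and 1 rose (Ucn3). With quantile normalization 5 fell and 2 rose. That setting gives a gene of the same rank in every library the same value in each. Ins2 showed no difference there for this reason, so its lost call in that setting says nothing about its fall. The calls of Ins1, Ins2 and Ucn3 were held in 11, 6 and 8 of 15 settings of the processing.

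All 10 disallowed genes were detected, and none was abundant. Oat, ornithine aminotransferase, was the highest at 6.11 ± 0.60 FPKM in control (SD, n = 3), above the median of 4.50 FPKM over the 15717 genes tested. It was followed by Ldha at 2.94 ± 0.27, Igfbp4 at 2.33 ± 0.17, Zfp36l1 at 2.06 ± 0.38, Lmo4 at 1.504 ± 0.274, Smad3 at 1.11 ± 0.074, Ndrg2 at 1.10 ± 0.33 and Mgst1 at 0.840 ± 0.14 FPKM in control. Rest, at 0.407 ± 0.088 FPKM, and Slc16a1, at 0.126 ± 0.092 FPKM, were lowest. These levels are divided by a single deposited length per gene, which need not be that of the transcript expressed. Comparisons between genes depend on that length. In control 41.2% of the tested genes were higher than Oat, 60.9% were higher than Ldha and 85.9% were higher than Mgst1. In the control libraries the ranges of Igfbp4 and Zfp36l1, of Zfp36l1 and Lmo4, of Smad3 and Ndrg2 and of Ndrg2 and Mgst1 overlapped, so their order is not resolved, and the other neighbours in the order were apart. In bKO the order was the same except that Ndrg2, at 1.60 ± 0.047 FPKM, had a higher mean than Lmo4 and Smad3. The bKO ranges of Ndrg2 and Lmo4, of Ldha and Igfbp4 and of Igfbp4 and Zfp36l1 overlapped, so their order is not resolved there either.

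**Figure D1:**
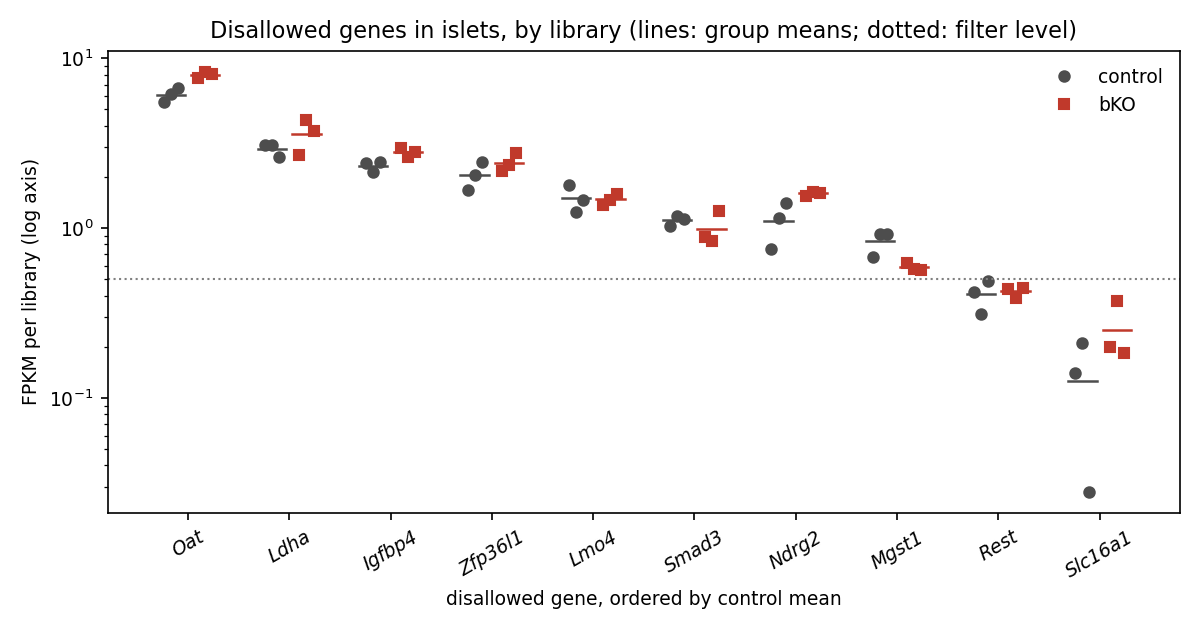
FPKM of each disallowed gene on a log axis, with 1 point per library (grey circles control, red squares bKO), lines at the group means and a dotted line at the filter level of 0.5 FPKM. Oat, Igfbp4, Ndrg2 and Mgst1 show groups that do not overlap, and Rest and Slc16a1 lie under the dotted line in every library.

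**Figure D2:**
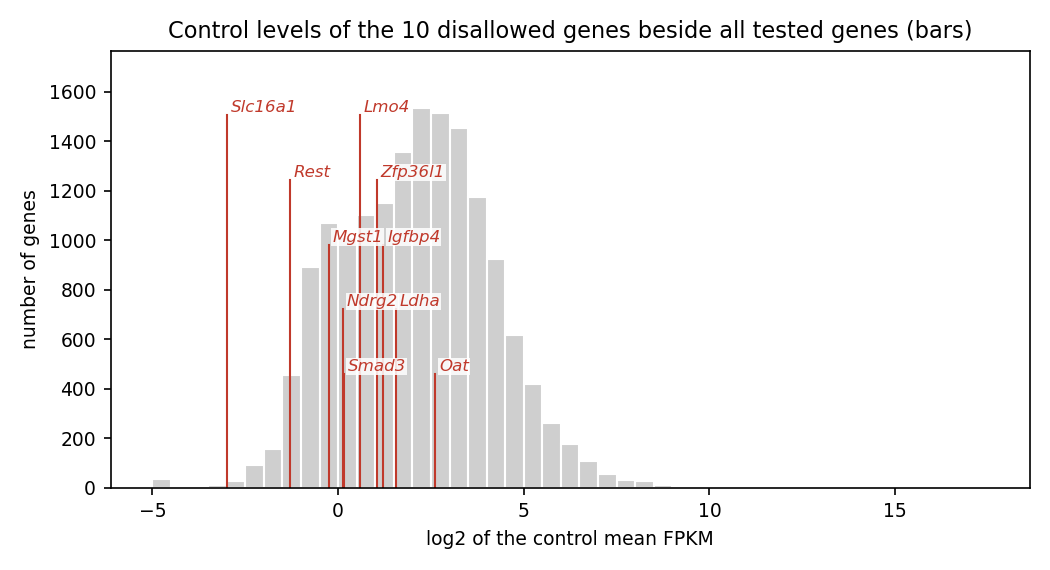
Bars count the 15717 tested genes by the log2 of their control mean FPKM, with lower values placed in the first bar, and red lines mark the 10 disallowed genes. Slc16a1 and Rest, which did not pass the filter that defines the tested genes, lie at the low edge. Oat alone lies above the tested genes' median of 4.50 FPKM.

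The comparison asks whether genes that beta cells keep low are at another level in islets whose beta cells lack YTHDC1. Of the 10 disallowed genes, 8 were tested because 3 or more libraries reached 0.5 FPKM, and Rest and Slc16a1 did not. Oat rose and 0 fell by limma with Benjamini-Hochberg adjustment over all tested genes, while 20.3% of all tested genes were called, 8.96% higher and 11.4% lower. At an unadjusted p under 0.05 the count was 3 of 8, against 34.7% of all tested genes. The median difference of the 8 tested members was 0.18 on the log2(FPKM + 1) scale, against -0.01 over all tested genes. Of the 8, 5 were positive, as were 7509 of all 15717 tested genes. With quantile normalization the members' median was 0.12, against -0.01 over all tested genes. There 1 member of 8 was called, while of all 15717 tested genes 1448 were called higher and 1407 lower. The groups did not overlap for 3 members that were higher in bKO (Oat, Igfbp4, Ndrg2) and 1 that was lower (Mgst1), while groups did not overlap for 40.1% of all tested genes, 18.5% higher and 21.6% lower. With libraries scaled by their totals the median over all tested genes moved to 0.13 and that of the 8 members to 0.30, and Oat and Igfbp4 were called, with 28.1% of all tested genes called, 23.4% higher and 4.69% lower.

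**Figure D3:**
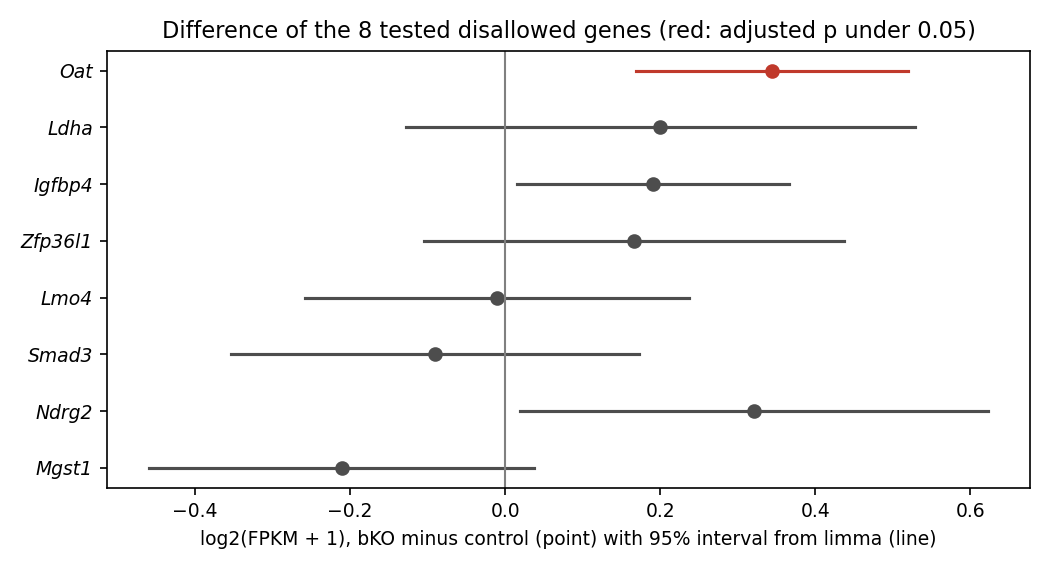
Difference in log2(FPKM + 1), bKO minus control, for the 8 tested disallowed genes, as points with 95% intervals from limma as lines. The interval of Oat lies between 0.17 and 0.52, and Oat is the gene whose adjusted p is under 0.05.

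Ldha makes the enzyme that turns pyruvate into lactate. It was at 3.10, 3.09 and 2.63 FPKM in control and at 2.67, 4.30 and 3.73 FPKM in bKO, from 141 to 258 reads per library. Replicate 1 of bKO lay among the control libraries and the other bKO libraries lay above them, so the groups overlapped. The difference was 0.20 on the log2(FPKM + 1) scale (95% interval -0.13 to 0.53, limma adjusted p = 0.356). It was 0.35 without bKO replicate 1 (limma adjusted p = 0.0728) and 0.08 without bKO replicate 2 (limma adjusted p = 0.713). Ldhb, the isoform that favours the reverse reaction, was higher per length, with means of 10.3 ± 0.59 FPKM (control) and 9.63 ± 0.61 FPKM (bKO, limma adjusted p = 0.366). The lengths used were 3310 bases for Ldha and 1570 bases for Ldhb, and their control reads were 482 and 803. Ldha took 23.5%, 21.9% and 21.0% of the summed Ldha and Ldhb FPKM in the control libraries and 21.2%, 32.5% and 27.1% in the bKO libraries. The means were 22.2% ± 1.2 and 26.9% ± 5.7 (SD, n = 3), and their difference of 4.78 percentage points had p = 0.3 in a two-sided exact permutation test, which with 3 against 3 libraries cannot give less than 0.1. Ldha (ENSMUSG00000063229) spans 46841475 to 46855627 on the plus strand of chromosome 7 (GRCm38), with no other annotated gene in that span. Its processed pseudogenes Ldha-ps and Ldha-ps2, which can share reads with it, held 0 to 7 and 2 to 9 reads per library.

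Ldha is a textbook target of hypoxia-inducible factors and MYC, which bind short sites around the letters ACGTG and CACGTG. One of its promoters in the table is shown because it holds the motif several times, and those of Oat and Slc16a1 because they hold it too. The sequences are from RefSeq on GRCm38.p6, 250 bases before to 50 after an annotated start, with ACGTG or its reverse complement in capitals, and overlapping matches merge into CACGTG. Both Ldha starts in that table lie inside the gene span given above, which comes from another annotation.
Ldha (chr7:46845554-46845853, plus strand): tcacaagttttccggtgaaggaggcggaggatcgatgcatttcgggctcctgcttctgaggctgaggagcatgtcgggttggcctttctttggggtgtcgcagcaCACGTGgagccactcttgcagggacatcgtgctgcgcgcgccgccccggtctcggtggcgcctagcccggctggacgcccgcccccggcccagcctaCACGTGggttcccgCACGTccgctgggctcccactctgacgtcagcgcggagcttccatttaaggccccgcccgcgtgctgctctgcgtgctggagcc
Oat (chr7:132576349-132576648, minus strand): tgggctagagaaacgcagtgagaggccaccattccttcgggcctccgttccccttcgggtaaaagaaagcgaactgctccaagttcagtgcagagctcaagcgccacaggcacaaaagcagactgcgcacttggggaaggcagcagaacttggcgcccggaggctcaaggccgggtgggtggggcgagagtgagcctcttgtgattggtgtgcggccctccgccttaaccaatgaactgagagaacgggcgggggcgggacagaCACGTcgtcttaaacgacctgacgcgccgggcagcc
Slc16a1 (chr3:104638414-104638713, plus strand): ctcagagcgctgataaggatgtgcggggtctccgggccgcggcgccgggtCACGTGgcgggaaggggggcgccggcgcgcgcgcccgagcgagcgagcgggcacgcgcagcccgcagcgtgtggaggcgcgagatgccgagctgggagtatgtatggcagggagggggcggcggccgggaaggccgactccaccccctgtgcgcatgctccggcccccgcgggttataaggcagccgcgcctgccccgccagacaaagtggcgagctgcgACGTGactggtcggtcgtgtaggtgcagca
The Ldha promoter holds 5 matches on either strand, that of Slc16a1 holds 3 and that of Oat 1, and a second Ldha start in the table holds 0. Promoters of 9 of the 10 members were in the table, with 15 promoters in all. ACGTG occurred in 5 of these 15 promoters, which belong to 4 genes (Ldha, Lmo4, Oat and Slc16a1), while 19.6% of all 32851 promoters of that length hold it. The longer CACGTG, which contains the shorter motif, occurred in 2 of the 15, those of Ldha and Slc16a1, and in 7.15% of all promoters. A match describes the letters and does not show that a factor binds there.

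Genes of the hypoxia response gave 1 rise and 1 fall among 12 tested of 14, with a median of -0.06 on the log2(FPKM + 1) scale, and with libraries scaled by their totals 4 rises, 0 falls and a median of 0.11. Epas1, the factor HIF-2 alpha, which endothelium expresses strongly, rose from 17.3 ± 0.66 to 21.7 ± 0.68 FPKM (limma adjusted p = 0.00488). P4ha1, a collagen prolyl hydroxylase, fell by 0.19 (limma adjusted p = 0.0353), but the difference was -0.02 with libraries scaled by their totals, and the call needed every library but control replicate 3 (limma adjusted p of up to 0.0995 without one of the others). Of 14 other genes of lactate and pyruvate handling, 11 were tested, 2 rose and 0 fell, with a median of 0.03 (5 rises, 0 falls and 0.19 with libraries scaled by their totals). Slc16a10, an aromatic amino acid carrier of the MCT family, rose from 59.2 ± 4.1 to 76.3 ± 4.2 FPKM (limma adjusted p = 0.00956). Ldhd, the D-lactate dehydrogenase, rose from 3.01 ± 0.25 to 3.86 ± 0.15 FPKM (limma adjusted p = 0.0329), a call held in 7 of 15 settings of the processing and dependent on every library except control replicate 2 (limma adjusted p of up to 0.102).

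Slc16a1 makes MCT1. It was at 0.140, 0.210 and 0.0279 FPKM in control and at 0.20, 0.374 and 0.183 FPKM in bKO, which is 10, 16 and 2 reads against 17, 30 and 15 reads. Control replicate 2 lay above 2 of the bKO libraries, so the groups overlapped. The ratio of the means, bKO over control, was 2.003. It ranged from 1.44, with control replicate 3 left out, to 3.00, with control replicate 2 left out. Pooled over libraries, 28 reads in control gave 0.128 FPKM (95% exact Poisson interval 0.0849 to 0.185) and 62 reads in bKO gave 0.251 FPKM (0.192 to 0.322), intervals that cover counting error only. Slc16a1 had no test in the fit because it did not pass the filter. With no filter its difference was 0.15 on the log2(FPKM + 1) scale (95% interval -0.06 to 0.37, limma adjusted p = 0.385). Slc16a1 (ENSMUSG00000032902) lies at 104638668 to 104658462 on the plus strand of chromosome 3 (GRCm38). The related lactate carriers Slc16a3 (MCT4) and Slc16a7 (MCT2) were also low, at 0.125 ± 0.049 and 0.405 ± 0.096 FPKM in control and 0.137 ± 0.058 and 0.509 ± 0.086 in bKO. Bsg, basigin, the chaperone that carries MCT1 to the membrane, was abundant at 240 ± 11 and 226 ± 5.8 FPKM, and its adjusted p was 0.251 by limma, with a difference of -0.08 that turned to 0.09 with libraries scaled by their totals and, with quantile normalization, to 0.15, where it passed the threshold (adjusted p = 0.0419).

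The miR-29 family is known to silence Slc16a1 in islets, and its mature sequences are shown with the seed (bases 2 to 8) in capitals, from RefSeq on GRCm38.p6.
mmu-miR-29a-3p: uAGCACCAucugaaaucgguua
mmu-miR-29b-3p: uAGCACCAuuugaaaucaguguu
mmu-miR-29c-3p: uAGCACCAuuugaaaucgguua
The 3 share 1 seed. The annotated 3′ UTR of Slc16a1 (2740 bases, GENCODE vM21) holds 1 match to it, shown 5′ to 3′ with the match in capitals.
Slc16a1 site (chr3:104655780-104655809, plus strand, GRCm38): gcctctagtctaccagTGGTGCTcagtgca
The match, TGGTGCT, begins at base 74 of the UTR, and 25% of the 3315 genes with a UTR of at least that length hold it within as many bases. Of the other members, Rest and Zfp36l1 each had 1 match in the longest annotated 3′ UTR, Igfbp4 had 2, and the remaining 6 had 0. Poly(A) selection does not capture mature miRNAs, and the miR-29 loci in the table held 1 read in all 6 libraries together.

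Oat makes ornithine aminotransferase, the mitochondrial enzyme that joins ornithine to glutamate and proline metabolism. It was at 5.50, 6.15 and 6.69 FPKM in control and at 7.61, 8.32 and 8.11 FPKM in bKO, from 209 to 356 reads per library. All 3 bKO libraries lay above all 3 control libraries. Oat rose by 0.34 on the log2(FPKM + 1) scale (SE 0.074, 95% interval 0.17 to 0.52, limma adjusted p = 0.0195), a ratio of means of 1.31. The call was held in 12 of 15 settings of the processing. It was lost with control replicate 2 left out (0.35, limma adjusted p = 0.0516), with bKO replicate 2 left out (0.32, limma adjusted p = 0.0665) and with bKO replicate 3 left out (0.34, limma adjusted p = 0.0607). Oat (ENSMUSG00000030934) spans 132557478 to 132576398 on the minus strand of chromosome 7, within the annotated span of Fgfr2 on the same strand, and no exon of the 2 genes overlaps.

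**Figure D4:**
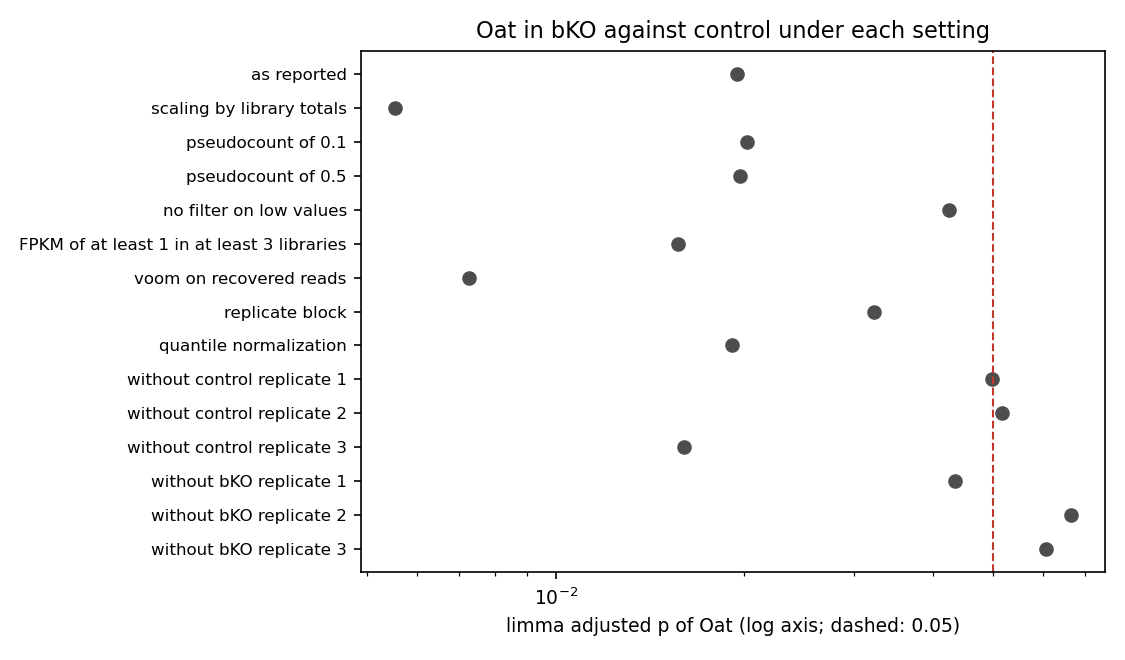
Limma adjusted p of Oat on a log axis under each of 15 settings, with a dashed line at 0.05. The points without control replicate 2, without bKO replicate 2 and without bKO replicate 3 lie right of the line, at 0.0516, 0.0665 and 0.0607.

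Of 12 other enzymes of ornithine, arginine and proline metabolism, 9 were tested and 3 rose, with a median of 0.09. Ass1, argininosuccinate synthase, which rebuilds arginine from citrulline, was at 0.926, 0.889 and 0.716 FPKM in control and at 3.24, 3.50 and 3.05 FPKM in bKO (limma adjusted p = 0.000401). This rise of 1.21 on the log2(FPKM + 1) scale exceeded that of Oat. Pycr1, the mitochondrial pyrroline-5-carboxylate reductase that makes proline, rose from 9.25 ± 0.76 to 14.7 ± 0.23 FPKM (limma adjusted p = 0.00114), and Aldh18a1, which makes pyrroline-5-carboxylate from glutamate, rose from 27.3 ± 0.88 to 32.5 ± 1.7 FPKM (limma adjusted p = 0.0162). Aldh18a1 lost its call without bKO replicate 2 or 3 (limma adjusted p of up to 0.0594) and with the replicate block (limma adjusted p = 0.0592).

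Mgst1 makes a membrane-bound glutathione transferase that detoxifies lipid peroxides. It was at 0.679, 0.923 and 0.920 FPKM in control and at 0.621, 0.576 and 0.564 FPKM in bKO, from 21 to 32 reads per library. All bKO libraries lay under all control libraries, and control replicate 1 was the nearest to them. The difference was -0.21 on the log2(FPKM + 1) scale (95% interval -0.46 to 0.04, limma adjusted p = 0.204) and stayed negative in every setting that gave a value. Mgst1 (ENSMUSG00000008540) lies at 138140316 to 138156755 on the plus strand of chromosome 6 (GRCm38). Mgst1 was 8.93% ± 1.6 of the summed FPKM of Mgst1, Mgst2 and Mgst3 in control and 6.26% ± 1.2 in bKO. Mgst3, a paralog, was higher per length, with 8.59 ± 0.55 and 8.83 ± 1.3 FPKM in the groups (limma adjusted p = 0.869). Mgst2, another paralog, had 0 reads in control and 9, 8 and 5 reads in the bKO libraries. With the control group set to its upper limit of 3 reads in total, the pooled Mgst2 level was 6.51-fold higher in bKO. That ratio leaves out counting error in bKO and the spread between libraries, so it is not a lower bound. It did not pass the filter, and with no filter its difference was 0.15 on the log2(FPKM + 1) scale (limma adjusted p = 0.0435). Of 5 related proteins 3 were tested, with 0 rises and 0 falls by limma, 1 at an unadjusted p under 0.05, and 1 fall with quantile normalization. The gene at an unadjusted p under 0.05, named after its values were seen, was Alox5ap, the 5-lipoxygenase activating protein of leukocytes, at 1.94 ± 0.24 and 1.24 ± 0.30 FPKM (limma adjusted p = 0.0598). Ptges, prostaglandin E synthase, was at 5.604 ± 0.74 FPKM (control) and 5.14 ± 0.15 FPKM (bKO), with a difference of -0.10 that turned to 0.05 with libraries scaled by their totals.

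Rest was at 0.421, 0.313 and 0.487 FPKM in control and at 0.440, 0.390 and 0.442 FPKM in bKO, from 39 to 61 reads per library. The bKO libraries lay within the range of the control libraries. Rest was under the filter, and with no filter the difference was 0.02 on the log2(FPKM + 1) scale (95% interval -0.17 to 0.20, limma adjusted p = 0.905). Pooled reads gave 0.405 FPKM in control (145 reads, 95% exact Poisson interval 0.342 to 0.477) and 0.424 FPKM in bKO (171 reads, 0.363 to 0.493). Rest (ENSMUSG00000029249) lies at 77265491 to 77286432 on the plus strand of chromosome 5 (GRCm38). REST acts with a complex of corepressors, and of 12 such genes, all tested, 2 fell and 0 rose, with a median of -0.06. With libraries scaled by their totals this turned to 0 falls and 2 rises (Sin3a and Kdm5c, named after their values were seen) and a median of 0.10. Hdac2, a histone deacetylase, fell from 19.1 ± 0.68 to 15.1 ± 0.88 FPKM (limma adjusted p = 0.0081), a call lost with libraries scaled by their totals (-0.15, limma adjusted p = 0.0946). Ehmt2, the histone methyltransferase G9a, fell by 0.16 (limma adjusted p = 0.0353), but was at 0.01 with libraries scaled by their totals, and the call needed every library but control replicate 3 (limma adjusted p of up to 0.105 without one of the others). Rcor1, the corepressor CoREST, was at 10.4 ± 0.73 and 10.3 ± 0.65 FPKM (limma adjusted p = 0.936).

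Beta cells lack REST and so express many of the neuronal genes it represses elsewhere. Of 20 such targets 19 were tested, 7 rose and 4 fell, with a median of -0.01, and with libraries scaled by their totals 9 rose and 1 fell, with a median of 0.16. Vgf, a secreted granule protein, was at 8.31, 6.54 and 6.46 FPKM in control and at 16.6, 19.6 and 20.6 FPKM in bKO (1.30 on the log2(FPKM + 1) scale, limma adjusted p = 0.000681). Tubb3, a neuronal tubulin, rose from 11.8 ± 0.58 to 18.4 ± 0.95 FPKM (limma adjusted p = 0.000914). Stmn2, a neuronal microtubule regulator, rose from 0.263 ± 0.13 to 1.32 ± 0.13 FPKM (limma adjusted p = 0.00379). Every control library of Stmn2 was under the filter level and every bKO library above it, so its bKO values alone brought it into the test. With no filter the difference of Stmn2 was 0.88 on the log2(FPKM + 1) scale (limma adjusted p = 0.00959). Gjd2, connexin 36, the gap junction protein that couples beta cells, fell from 126 ± 7.9 to 69.9 ± 0.84 FPKM (limma adjusted p = 0.000231). The targets moved in both directions, and a link between these changes and Rest, which was under the filter, was not tested. Each of these 4 calls was held in 15 of 15 settings. The core of the RE1 site, searched on both strands, was in 0 of the 13 promoters in the table for 12 of these targets and in 0.0517% of all promoters, and known RE1 sites often lie outside such a window.

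Smad3 makes the signal transducer of TGF-beta and activin. It was at 1.03, 1.17 and 1.14 FPKM in control and at 0.883, 0.836 and 1.26 FPKM in bKO, with bKO replicate 3 above every control library and the other bKO libraries under them. The difference was -0.09 on the log2(FPKM + 1) scale (95% interval -0.35 to 0.17, limma adjusted p = 0.608), and -0.0002 with libraries scaled by their totals. Smad3 (ENSMUSG00000032402) lies at 63646767 to 63757994 on the minus strand of chromosome 9 (GRCm38). Smad2, which the same receptors activate, was higher per length, at 8.42 ± 0.69 and 8.40 ± 0.69 FPKM, and Smad3 was 11.7% ± 1.5 of the summed Smad2 and Smad3 FPKM in control and 10.6% ± 2.1 in bKO. Smad4, the common partner, was at 21.1 ± 1.6 and 20.1 ± 0.68 FPKM. Smad7, an inhibitory SMAD, was at 3.90 ± 0.46 and 4.53 ± 0.11 FPKM (limma adjusted p = 0.161), and was called with libraries scaled by their totals (0.32, limma adjusted p = 0.0319).

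Of 24 other genes of this pathway 22 were tested, 4 rose and 2 fell, with a median of 0.03 (6, 1 and 0.17 with libraries scaled by their totals). Inhbb, the activin B subunit, rose from 1.65 ± 0.15 to 3.54 ± 0.32 FPKM (limma adjusted p = 0.0017), and the activin receptor gene Acvr2b rose from 2.93 ± 0.35 to 4.57 ± 0.24 FPKM (limma adjusted p = 0.00737). Acvr1c, the type I receptor ALK7, fell from 1.49 ± 0.26 to 0.675 ± 0.021 FPKM (limma adjusted p = 0.012). Ctgf, a secreted matrix protein and a target of SMADs and YAP, rose from 2.91 ± 0.43 to 4.68 ± 0.35 FPKM (limma adjusted p = 0.00966). These 4 calls were held in 15 of 15 settings. The other rise and fall, named after their values were seen, were those of Smad6, an inhibitory SMAD (0.40, limma adjusted p = 0.0199), and Tgfbr1, the type I receptor of TGF-beta (-0.26, limma adjusted p = 0.0347). With libraries scaled by their totals Tgfbr1 was at -0.10 and not called. Smad6 was lost without replicates 1 or 2 of control or 1 or 3 of bKO (limma adjusted p of up to 0.0721), and Tgfbr1 without replicates 1 or 3 of control or any of bKO (limma adjusted p of up to 0.11).

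Lmo4 makes a LIM-only adaptor of transcription complexes. It was at 1.79, 1.25 and 1.47 FPKM in control and at 1.37, 1.47 and 1.59 FPKM in bKO, and the bKO libraries lay within the range of the control libraries. The difference of -0.01 on the log2(FPKM + 1) scale (95% interval -0.26 to 0.24, limma adjusted p = 0.957) turned to 0.10 with libraries scaled by their totals, to 0.07 without control replicate 1 and to 0.02 without bKO replicate 1. Lmo4 (ENSMUSG00000028266) lies at 144188530 to 144205220 on the minus strand of chromosome 3 (GRCm38). Ldb1, the adaptor that LMO proteins bind and that beta cells use with ISL1, was at 30.5 ± 1.1 and 30.2 ± 0.66 FPKM (limma adjusted p = 0.871), with a difference of -0.01 that was 0.16 and called with libraries scaled by their totals (limma adjusted p = 0.0285). Of 9 relatives and partners 8 were tested, 1 rose and 0 fell, with a median of 0.10 (4, 0 and 0.25 with libraries scaled by their totals). The rise was that of Lmo1, another LIM-only gene, at 0.720, 0.561 and 0.875 FPKM in control and at 3.62, 4.16 and 1.99 FPKM in bKO (1.27 on the log2(FPKM + 1) scale, limma adjusted p = 0.00709).

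Zfp36l1 makes an RNA-binding protein that hastens decay of mRNAs with AU-rich elements. It was at 1.68, 2.06 and 2.44 FPKM in control and at 2.18, 2.34 and 2.75 FPKM in bKO. Control replicate 1 was lowest and bKO replicate 3 highest, and the groups overlapped. The difference was 0.17 on the log2(FPKM + 1) scale (95% interval -0.10 to 0.44, limma adjusted p = 0.352). Zfp36l1 (ENSMUSG00000021127) lies at 80107754 to 80113013 on the minus strand of chromosome 12 (GRCm38). Its exons overlap those of the lincRNA gene Gm26669 on the opposite strand, and with no strand setting given for the counting the reads of the 2 genes cannot be told apart. Both other expressed members of the family were higher per length and rose. Zfp36, tristetraprolin, went from 17.7 ± 1.6 to 24.6 ± 1.5 FPKM (limma adjusted p = 0.00802) and Zfp36l2 from 20.6 ± 2.3 to 29.2 ± 1.7 FPKM (limma adjusted p = 0.00868), each called in 15 of 15 settings. Zfp36l3 was at 0 in every library, and Zfp36l1 was 5.17% ± 1.4 of the family's summed FPKM in control and 4.31% ± 0.34 in bKO.

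Igfbp4 makes a secreted protein that binds insulin-like growth factors and limits their action. It was at 2.40, 2.13 and 2.45 FPKM in control and at 2.95, 2.62 and 2.82 FPKM in bKO, from 162 to 250 reads per library. All bKO libraries lay above all control libraries. The difference was 0.19 on the log2(FPKM + 1) scale (95% interval 0.02 to 0.37, limma adjusted p = 0.117). With libraries scaled by their totals it was 0.32 and passed the threshold (limma adjusted p = 0.0245), a value to be read against the shift of all tested genes to 0.13. Igfbp4 (ENSMUSG00000017493) lies at 99041244 to 99054392 on the plus strand of chromosome 11 (GRCm38). Of 12 other genes of the IGF system 6 were tested, 2 rose and 1 fell, with a median of 0.12 (4, 0 and 0.27 with libraries scaled by their totals). Pappa2, a protease that cuts IGF-binding proteins, rose from 35.6 ± 0.91 to 54.0 ± 2.9 FPKM (limma adjusted p = 0.000646), and Igfbp3, the main IGF carrier of plasma, rose from 39.1 ± 4.4 to 59.4 ± 6.0 FPKM (limma adjusted p = 0.00766). Both calls were held in 15 of 15 settings. Igf1r, the IGF-1 receptor, fell by 0.18 (limma adjusted p = 0.0441), but was at -0.02 with libraries scaled by their totals and was called in 5 of 15 settings, in none of the 6 that leave out a library (limma adjusted p of up to 0.132). Igfbp5 was at 4.44 ± 0.15 and 4.70 ± 0.25 FPKM (0.07, limma adjusted p = 0.462), and was called with libraries scaled by their totals (0.21, limma adjusted p = 0.036). Igfbp4 took 0.848% ± 0.086 of the summed FPKM of Igfbp1 to Igfbp7 in control and 0.985% ± 0.081 in bKO.

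Ndrg2 makes a protein of the NDRG family linked to stress responses and differentiation. It was at 0.750, 1.14 and 1.40 FPKM in control and at 1.55, 1.64 and 1.61 FPKM in bKO, with 41, 67 and 77 reads against 101 in each bKO library. The control libraries were spread widely and all lay under the bKO libraries, which were close to each other. The difference was 0.32 on the log2(FPKM + 1) scale (95% interval 0.02 to 0.62, limma adjusted p = 0.124). On this scale, which understates changes of low genes, that was close to Oat, but the ratio of means was 1.46 against 1.31 for Oat. The difference was 0.20 without control replicate 1 (limma adjusted p = 0.261). With voom on recovered reads, which weights reads by their precision, it was 0.58 and passed the threshold (adjusted p = 0.0481), with 27.7% of all tested genes called. Ndrg2 (ENSMUSG00000004558) lies at 51905271 to 51914158 on the minus strand of chromosome 14 (GRCm38). Ndrg4, a relative best known in brain and heart, rose from 3.93 ± 0.061 to 5.94 ± 0.39 FPKM (limma adjusted p = 0.00265). Ndrg3 fell by 0.17 (limma adjusted p = 0.0475), but its difference was -0.00 with libraries scaled by their totals. The call of Ndrg3 needed every library but control replicate 3 (limma adjusted p of up to 0.134 without one of the others). The hypoxia-induced Ndrg1 was at 21.4 ± 1.6 and 21.6 ± 0.55 FPKM (limma adjusted p = 0.88), and was called with libraries scaled by their totals (0.18, limma adjusted p = 0.04). Ndrg2 took 2.62% ± 0.88 of the summed FPKM of Ndrg1 to Ndrg4 in control and 3.71% ± 0.054 in bKO.

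Of 8 other genes described as kept low in beta cells 6 were tested, 1 rose and 0 fell, with a median of 0.16. Acot7, an acyl-CoA thioesterase, was at 0.643, 0.710 and 0.930 FPKM in control and at 2.62, 2.39 and 1.09 FPKM in bKO, with bKO replicate 3 close to the control libraries. Its rise of 0.75 on the log2(FPKM + 1) scale (SE 0.21, limma adjusted p = 0.0486) held in 7 of 15 settings. It depended on every library except bKO replicate 3 (limma adjusted p of up to 0.137). Pdgfra and Hk2 were under the filter, as were Rest and Slc16a1.

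**Figure D5:**
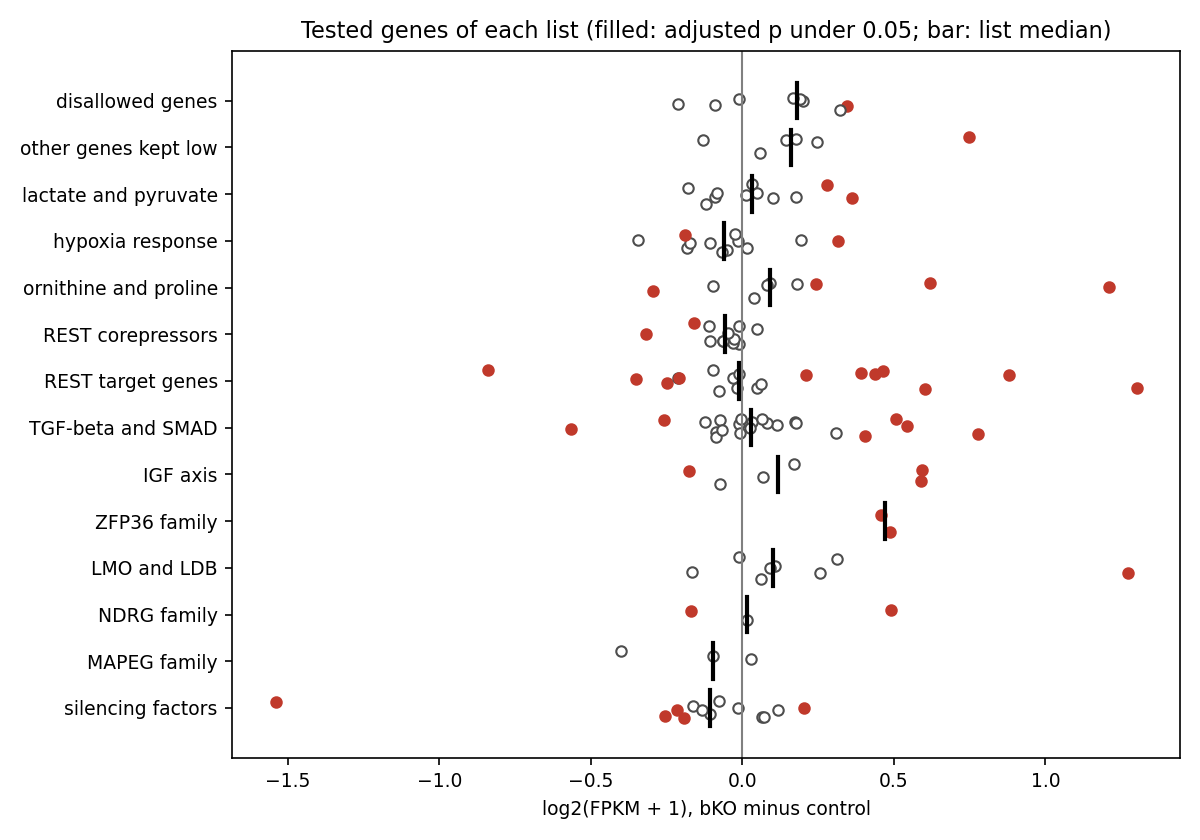
Difference in log2(FPKM + 1), bKO minus control, for the tested genes of the disallowed group and of 13 lists of relatives and partners, with filled points for an adjusted p under 0.05 and bars at the list medians. The 8 disallowed genes lie between -0.21 and 0.34, and REST targets lie between -0.84 and 1.30.

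Factors linked to the silencing of disallowed genes gave 4 falls and 1 rise among 13 genes, all tested, with a median of -0.11. Mafa, a transcription factor of mature beta cells, fell from 423 ± 31 to 145 ± 18 FPKM (limma adjusted p = 0.000301). Pax6 fell by 0.26 (limma adjusted p = 0.00468), Dicer1, which makes mature miRNAs, by 0.21 (limma adjusted p = 0.0198) and Dnmt3a by 0.19 (limma adjusted p = 0.0198). With libraries scaled by their totals these 3 calls were lost, at -0.09, -0.05 and -0.03, and 5 genes of the list rose and 1 fell, with a median of 0.03. Dnmt3a was at 15.5, 15.6 and 15.9 FPKM in control and at 13.3, 13.3 and 14.1 FPKM in bKO, and replicates 1 and 2 of either group were each needed for its call (limma adjusted p of up to 0.0722). The call of Dicer1 was lost when control replicate 1 or 2 or bKO replicate 1 was left out. The rise was that of Insm1, an endocrine transcription factor named after its values were seen, from 129.7 ± 5.9 to 149 ± 8.2 FPKM (limma adjusted p = 0.0408, and up to 0.112 when control replicate 2 or 3 or bKO replicate 1 or 2 was left out).

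Cell types other than beta cells express several members, and their markers moved between the groups. Of 10 endothelial markers, all tested, 5 rose (Eng, Flt1, Tek, Cdh5 and Plvap) and 0 fell, and their summed level was 162 to 186 FPKM in control and 206 to 212 FPKM in bKO. Of 10 mesenchymal markers Thy1 and Pdgfrb rose and 0 fell (54.1 to 58.2 and 55.8 to 60.7 FPKM), and of 6 Schwann cell markers Ngfr, Foxd3 and Cdh19 rose and 0 fell (4.94 to 6.88 and 7.68 to 9.75 FPKM). Of 10 macrophage markers 8 were tested, C1qa, C1qb and C1qc fell and 0 rose (91.6 to 103 and 57.3 to 71.3 FPKM), and of 11 acinar markers 9 were tested and 0 were called (52.5 to 175 and 104 to 149 FPKM). Of 6 alpha-cell markers Irx2 rose and Slc7a2 fell (18491 to 22477 and 16821 to 20119 FPKM), and of 4 delta- and PP-cell markers Pyy and Ppy rose (9796 to 11985 and 16229 to 19274 FPKM). Of 6 duct markers 4 were tested and 0 were called (42.7 to 46.2 and 45.5 to 48.7 FPKM), and of 6 lymphocyte markers Cd79a alone was tested, and it fell (4.11 to 6.89 and 0.719 to 1.80 FPKM). The acinar marker Ptf1a and the lymphocyte marker Cd3g were at 0 in every library. Ngfr, Foxd3 and Cdh19 were under the filter level in every control library and above it in every bKO library. With no filter Foxd3 was not called (limma adjusted p = 0.0679), while Ngfr and Cdh19 were (limma adjusted p = 0.0224 and 0.0421). The calls of Eng, Thy1, Pdgfrb, Ngfr, C1qa, C1qc, Slc7a2, Pyy, Ppy and Cd79a were held with any single library left out. Those of Flt1, Tek, Cdh5, Plvap, Foxd3, Cdh19, C1qb and Irx2 were each lost without at least 1 library, with a limma adjusted p of up to 0.0522 for Flt1 (without bKO replicate 3) and up to 0.129 for Irx2. With quantile normalization 1 of the 6 Schwann cell markers was called, and with libraries scaled by their totals 9 of the 10 endothelial markers and 3 of the 4 duct markers were. The part of these cells in the values of the disallowed genes was not tested. The summed level of the 10 disallowed genes was 17.5, 18.4 and 19.6 FPKM in the control libraries and 20.5, 22.9 and 23.1 FPKM in the bKO libraries, a sum in which Oat and Ldha weigh most.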

How the data were processed

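RNA of pancreatic islets was sequenced in 3 control and 3 bKO libraries, and groups and replicate numbers were taken from the sample titles. Per the labels, the authors aligned paired reads to GRCm38 with HISAT2 2.0.5 and counted genes by featureCounts 1.5.0-p3. DESeq2 1.20.0 and CASAVA stand in the submitters' processing notes with no role. The sources used here do not give the strand setting, the annotation release or the treatment of multiply mapped reads. The authors deposited FPKM for 54532 genes. Every value above 0, times gene length and 1 factor per library, was a whole read within 0.01 (100% of values), and the factors equal median-of-ratios size factors times the mean depth. There were 0 columns of other samples. Libraries of a group differed beyond sampling noise (chi-square per degree of freedom 4.09 to 6.50).

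The test was limma 3.58.1 in R 4.3.3, on log2(FPKM + 1) of the 15717 genes that reached 0.5 FPKM in 3 or more libraries, with a mean-variance trend, no covariate, Benjamini-Hochberg adjustment and a threshold of 0.05. This scale understates changes of low genes. The result of 1 listed gene is not reported here. The members and lists were chosen with earlier results of these data known. The rule for names took the members, Ythdc1, set relatives of each member, and up to 4 called genes of each list by smallest adjusted p, or the 2 most abundant where none was called. Gene positions and exon overlaps come from GENCODE vM21. Python 3.11.15 with pandas 2.3.3, numpy 2.4.6, scipy 1.17.1 and matplotlib 3.10.9 was used for the rest. Alternatives were scaling by totals, pseudocounts of 0.1 and 0.5, no filter, an FPKM of at least 1, voom on recovered reads, the replicate block, quantile normalization and leaving out each library.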

Additional observations from a re-analysis of the deposited data

How the results depend on the processing

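Over 14 alternatives, the count of disallowed genes called, 1 with the settings of the report, was 2 with libraries scaled by their totals (Oat and Igfbp4) and 2 with voom on recovered reads (Oat and Ndrg2), and 0 to 1 when a library was left out. Oat kept its direction in all 14, with 0.28 to 0.40 on the log2 scale when a library was left out. Igfbp4 passed the threshold with total scaling (0.32) and Ndrg2 with voom (0.58). Lmo4 changed sign with total scaling (0.10), without control replicate 1 (0.07) and without bKO replicate 1 (0.02), and ranged from -0.0848 to 0.0717 when a library was left out. Rest, with no test, also changed sign, from 0.02 to -0.03 without control replicate 2. Smad3 went from -0.09 to -0.0002 with total scaling. Ldha, Zfp36l1 and Mgst1 kept their direction and their side of the threshold wherever they were tested. Slc16a1, with no test, moved from 0.15 to 0.69 with a pseudocount of 0.1. It and Rest could not be fitted with the stricter filter, voom or quantile normalization, nor could Mgst1 with the stricter filter. Over all genes, 1408 higher and 1784 lower became 3684 and 737 with total scaling and 925 and 1152 with the replicate block, and ran from 852 to 1179 and from 1037 to 1604 when a library was left out. Same-numbered libraries did not deviate together (correlations -0.05, -0.01 and -0.07), but 3 libraries per group are too few to exclude a pairing. With the replicate block Oat stayed called (limma adjusted p = 0.0323) and no other member was. The Ldha share difference was 1.98 to 7.65 percentage points when a library was left out, against 4.78. Depth limits Slc16a1, Mgst1 and Rest most, with 2 to 61 reads per library, so modest changes of these genes may have been missed. The size of change that could be detected at such depth was not computed. The limma p-values of the main fit set each difference against the spread between libraries, with 3 per group. That spread is moderated by the trend over all tested genes. The p-values rest on these samples alone.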
